A study of Mus musculus with 15 samples.

Results

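The 7 genes described here encode secreted proteins of the Wnt pathway, and were chosen by name as a set of Wnt ligands (Wnt2, Wnt5a), R-spondins (Rspo1, Rspo3) and secreted frizzled-related antagonists (Sfrp1, Sfrp2, Sfrp4). All 7 were present among the 12763 genes of the deposited count table, and all 7 were among the 10207 genes that passed the filter on low counts. The cells were thymic fibroblasts of young, wild-type, male mice, and their messenger RNA was profiled. The 3 groups were untreated mice, mice killed 1 day after a sublethal dose of 425 rad, and mice killed 3 days after that dose. Each group held 5 libraries. MARS-seq, the method used, tags each captured transcript near its 3' end with a unique molecular identifier (UMI), so that molecules rather than reads are counted. All groups shared the WT genotype and the sort, which the labels give as CD45- EpCAM+ CD34+ CD31- PDGFRalpha+, and the controls were matched in age. The labels do not say whether each library came from its own mouse, and the p-values therefore reflect library-to-library spread, which may in part be technical.

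Wnt proteins bind Frizzled receptors with the co-receptors Lrp5 or Lrp6, which stabilises beta-catenin and switches on target genes, or with receptors such as Ror2, which steer cell shape and movement without beta-catenin. R-spondins bind Lgr receptors and keep Frizzled receptors at the cell surface by blocking the ligases that remove them. Secreted frizzled-related proteins carry a Frizzled-like domain, bind Wnts outside the cell and mostly dampen their action. In the thymus, Wnt signals from stromal cells act on both developing T cells and the epithelium that supports them.

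The untreated libraries held 1102176 to 2661621 UMIs each, those of day 1 held 740169 to 2638344, and those of day 3 held 1967148 to 3750214. Levels are given in CPM, counts per 1000000 UMIs of the tested genes in a library, after scaling by TMM. A gene was called at an edgeR quasi-likelihood adjusted p under 0.05 over all genes tested. Day 1 replicate 1 had the fewest UMIs and stood apart from the other day 1 libraries on the second principal component (65.97 against -27.3 to -23.98). Transcripts of the sort's positive markers Pdgfra and Cd34 were plentiful, with 3727 and 18498 UMIs over the untreated libraries. They had 1009 and 4998 UMIs at day 1 (log2 change -1.47 and -1.58) and 3000 and 16907 at day 3. Epcam had 11 UMIs in untreated libraries, 10 at day 1 and 10 at day 3, although the label gives the sort as EpCAM+. Ptprc, which encodes CD45, had 35, 38 and 9 UMIs in untreated, day 1 and day 3 libraries, and Pecam1, which encodes CD31, had 35, 59 and 47. The summed level of 9 fibroblast markers was 42481 ± 2694 CPM in untreated libraries, 20431 ± 5765 at day 1 and 36757 ± 2989 at day 3 (SD, n = 5). In bulk samples, fewer cells of a type and less RNA per cell cannot be told apart.

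RefSeq promoter windows (GRCm38.p6, from 250 bases before to 50 after the start) matched 3 of the 7 genes. These 3 are shown because they were the ones matched. At day 1 Wnt2 was lower, Rspo1 was higher and Sfrp2 did not pass the test. Only bases outside annotated exons are printed, 5′ to 3′ on the gene's own strand, and capitals mark a GC box. The printed stretches lie at chr6:18030586-18030695 on the minus strand for Wnt2, chr4:124986180-124986429 on the plus strand for Rspo1 and chr3:83766071-83766320 on the plus strand for Sfrp2.
Wnt2: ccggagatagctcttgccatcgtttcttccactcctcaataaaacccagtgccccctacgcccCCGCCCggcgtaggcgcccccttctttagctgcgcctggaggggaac
Rspo1: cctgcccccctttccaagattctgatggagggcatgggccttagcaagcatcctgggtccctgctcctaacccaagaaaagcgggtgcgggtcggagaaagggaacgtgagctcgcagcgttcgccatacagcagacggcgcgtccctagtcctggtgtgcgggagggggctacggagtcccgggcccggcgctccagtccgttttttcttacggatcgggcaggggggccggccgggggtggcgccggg
Sfrp2: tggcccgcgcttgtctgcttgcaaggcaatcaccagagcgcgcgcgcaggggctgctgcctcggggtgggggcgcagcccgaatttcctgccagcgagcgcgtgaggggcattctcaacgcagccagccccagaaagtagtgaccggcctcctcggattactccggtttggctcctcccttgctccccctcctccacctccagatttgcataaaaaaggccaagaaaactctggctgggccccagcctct
The GC content of these printed stretches was 62.7% for Wnt2, 66.8% for Rspo1 and 63.6% for Sfrp2, with 8, 22 and 16 CpG dinucleotides. On either strand of the full windows, the TCF/LEF motif CTTTGNT, which 18.6% of all 32851 promoter windows of the same length held, was in none of the 3. Likewise in none of them were the AP-1 motif TGANTCA (7.81% of all windows), the interferon-stimulated response element (ISRE, 3.44%) and the TATA motif TATAAA (13.6%). The Wnt2 window held the GC box GGGCGG (35.7% of all windows) and the CCAAT box (37.4%), and the other two held neither. These are letter matches in short windows and say nothing of whether a factor binds there.

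At day 1, 5 of the 7 genes were called against untreated libraries, 1 higher and 4 lower, where edgeR called 46.2% of all genes tested, 23.1% higher and 23.1% lower. That even split of 2355 higher and 2362 lower genes holds for TMM scaling, and scaling by total counts alone gave 1498 higher and 3652 lower. Both Wnt ligands, Sfrp1 and Sfrp4 fell to between 0.198 and 0.274 of their untreated level, Rspo1 rose 2.55-fold, and Sfrp2 and Rspo3 did not pass the test. The median log2 change of the 7 genes was -1.87, against -0.02 over all genes tested. At day 3, 4 of the 7 were called against untreated, 2 higher (Sfrp2, Rspo3) and 2 lower (Wnt2, Sfrp4), where 18.4% of all genes were called, 9.20% higher and 9.25% lower (939 and 944 genes, or 660 and 1442 with total counts). The median log2 change was then -0.18, against -0.01 over all genes. Between day 1 and day 3, 6 of the 7 rose and none fell by the test, where 32.7% of all genes were called, 16.1% higher and 16.6% lower at day 3 (1644 and 1691 genes, or 2305 and 1203 with total counts). The gene that was not called there was Rspo1. The comparisons share libraries: both times were set against the same 5 untreated libraries.

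**Figure D1:**
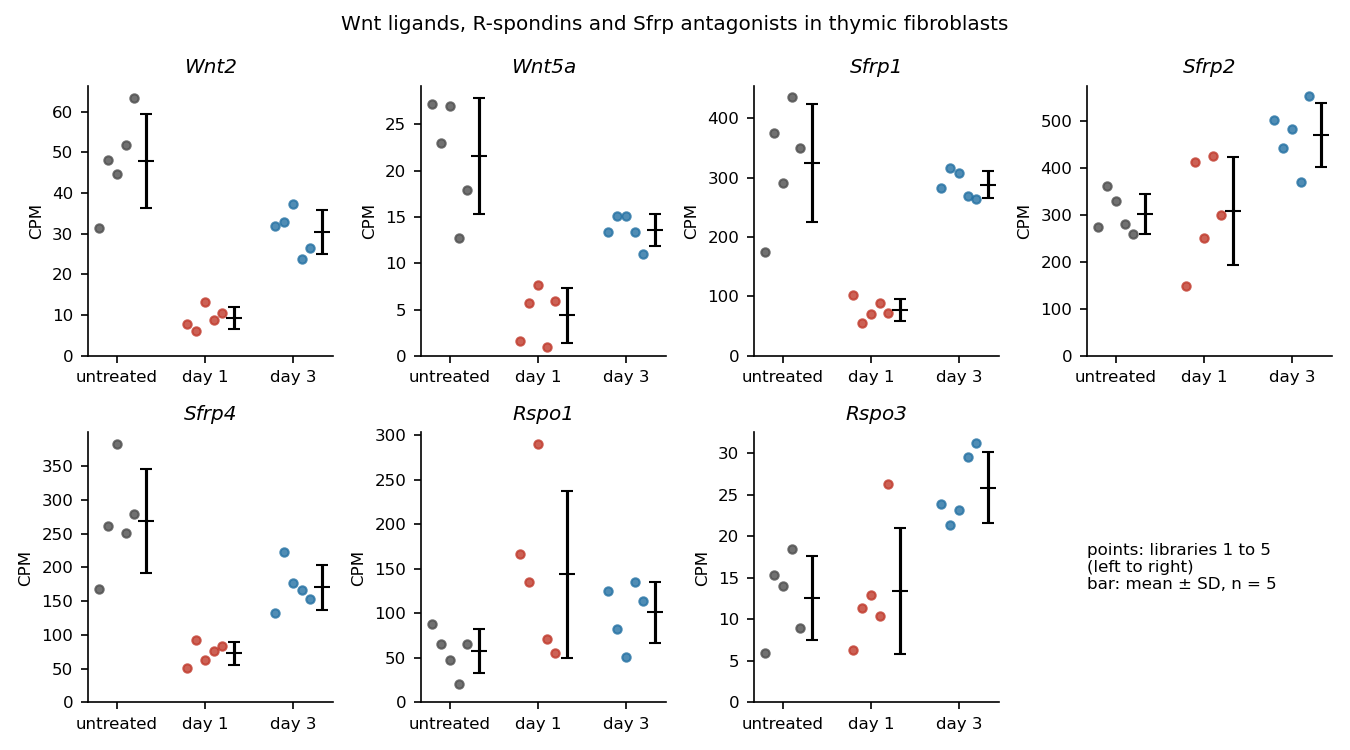
Level of each of the 7 genes in CPM (vertical axes, each from 0) in every library of the untreated, day 1 and day 3 groups; points are libraries 1 to 5 from left to right, and the bar beside them is the mean ± SD (n = 5). Wnt2, Wnt5a, Sfrp1 and Sfrp4 lie lower in every day 1 library than in any untreated one, while Sfrp2, Rspo1 and Rspo3 overlap between those groups.

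Wnt2, a ligand best known for signalling through beta-catenin in lung development, lies at chr6:17988940-18030585 on the minus strand (GRCm38). In untreated libraries 1 to 5 it measured 31.5, 48.1, 44.6, 51.7 and 63.4 CPM, at day 1 it measured 7.87, 6.11, 13.3, 8.91 and 10.5 CPM, and at day 3 it measured 32.0, 32.9, 37.3, 23.7 and 26.4 CPM. Every day 1 library was below every library of the other 2 groups, and the day 3 libraries overlapped the lower end of the untreated ones. The means were 47.9 ± 11.6, 9.34 ± 2.74 and 30.5 ± 5.43 CPM (SD, n = 5). Wnt2 fell by 2.34 ± 0.22 (SE) on the log2 scale at day 1 (edgeR adjusted p = 4.23e-08), to 0.198 of its untreated level (0.145 to 0.270 at ± 2 SE). It rose by 1.66 ± 0.23 from day 1 to day 3 (edgeR adjusted p = 8.7e-06) and still differed from untreated libraries by -0.68 ± 0.19 at day 3 (edgeR adjusted p = 0.0146). The order of its levels was untreated, day 3, day 1. Without untreated replicate 5 the day 3 change was -0.56 and no longer passed (edgeR adjusted p = 0.0543).

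Wnt5a, a ligand known mainly for signalling without beta-catenin through Ror2, lies at chr14:28504750-28527448 on the plus strand. In the order of replicates it measured 27.2, 23.0, 27.0, 12.8 and 17.9 CPM in untreated libraries, 1.575, 5.67, 7.67, 0.990 and 5.91 CPM at day 1, and 13.35, 15.1, 15.1, 13.4 and 11.0 CPM at day 3. All 5 day 1 libraries were below all untreated and day 3 libraries, and the day 3 libraries overlapped the untreated group through untreated replicate 4. The day 1 values rest on 1, 13, 19, 2 and 9 UMIs. The log2 change was -2.13 ± 0.32 at day 1 (edgeR adjusted p = 1.65e-05) and 1.48 ± 0.33 from day 1 to day 3 (edgeR adjusted p = 0.00141). Against untreated, day 3 differed by -0.64 ± 0.26, which did not pass (edgeR adjusted p = 0.0874) but did without untreated replicate 4, at -0.80 (edgeR adjusted p = 0.0450). The order of levels was again untreated, day 3, day 1, with the first pair not separated by the test. An antisense gene, Gm2670, overlaps exons of Wnt5a on the other strand, and the strand setting of the counting is not given in the sources used here.

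Sfrp1, an antagonist that binds Wnts and Frizzled receptors, lies at chr8:23411502-23449632 on the plus strand. Untreated replicates 1 to 5 held 174, 375, 290.3, 435 and 349 CPM, the day 1 replicates held 102, 55.0, 69.8, 89.1 and 72.8 CPM, and the day 3 replicates held 283, 316, 307, 269 and 264 CPM. The day 1 group was low in every library with no overlap, and the day 3 libraries all lay inside the range of the untreated ones. Sfrp1 fell by 2.09 ± 0.20 on the log2 scale at day 1 (edgeR adjusted p = 5.49e-08), to 0.235 of its untreated level (0.177 to 0.3125 at ± 2 SE). From day 1 to day 3 it rose by 1.91 ± 0.20 (edgeR adjusted p = 3.29e-07), 3.76-fold. Untreated and day 3 levels, 325 ± 98.9 and 288 ± 22.9 CPM (SD, n = 5), differed by -0.18 ± 0.19 on the log2 scale (edgeR adjusted p = 0.573), an interval of -0.56 to 0.20 at ± 2 SE.

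Sfrp4, an antagonist known for its part in bone remodelling, lies at chr13:19623104-19632994 on the plus strand. The untreated replicates measured 168, 261, 383, 250.6 and 279.6 CPM, those of day 1 measured 50.4, 92.5, 62.2, 75.7 and 83.3 CPM, and those of day 3 measured 133, 223, 177, 167 and 153 CPM. Day 1 was below both other groups in every library, while 3 of the 5 day 3 libraries were below all untreated ones and the other two fell within their range. Sfrp4 fell by 1.87 ± 0.20 on the log2 scale at day 1 (edgeR adjusted p = 2.23e-07), to 0.274 of its untreated level. It rose by 1.21 ± 0.20 to day 3 (edgeR adjusted p = 8.6e-05), where it was still changed by -0.66 ± 0.19 against untreated (edgeR adjusted p = 0.0199). That last call was lost without untreated replicate 3, at -0.50 (edgeR adjusted p = 0.0834), and without day 3 replicate 1, at -0.58 (edgeR adjusted p = 0.0614).

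Sfrp2, the closest relative of Sfrp1 in this set and a common marker of fibroblasts, lies at chr3:83766321-83774316 on the plus strand, and it did not follow the other antagonists. Its untreated replicates measured 275, 362, 330.2, 282 and 260 CPM, and its day 1 replicates measured 149.6, 413, 252, 425.5 and 299.9 CPM. At day 3 the replicates measured 502.5, 444, 483, 371 and 555 CPM. The day 1 libraries spread on both sides of the untreated ones, 2 above all of them and 2 below all of them, whereas every day 3 library was above every untreated one. The log2 change was 0.04 ± 0.21 at day 1 (edgeR adjusted p = 0.896; -0.37 to 0.45 at ± 2 SE) and 0.64 ± 0.21 at day 3 (edgeR adjusted p = 0.0324), a rise of 1.56-fold. From day 1 to day 3 it rose by 0.60 ± 0.21 (edgeR adjusted p = 0.0280). The rise against untreated passed in 3 of the 10 fits that each left out 1 library, with values of 0.57 to 0.72 and adjusted p of 0.0319 to 0.0849. An antisense gene, Gm26771, overlaps exons of Sfrp2 on the other strand.

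The 3 antagonists were also set beside each other as shares of their summed transcripts. The summed level of Sfrp1, Sfrp2 and Sfrp4 was 895 ± 162 CPM in untreated libraries, 459 ± 120 CPM at day 1 and 929.5 ± 72.7 CPM at day 3 (SD, n = 5). Sfrp2 made up a median of 32.9% of their UMIs in untreated libraries (29.2% to 44.5%), 65.8% at day 1 (49.5% to 73.7%) and 49.95% at day 3 (45.15% to 57.1%). In every day 1 and every day 3 library its share was above that of every untreated library. The number of Sfrp2 UMIs per Sfrp1 UMI had a median of 0.966 in untreated libraries (0.649 to 1.58), 4.12 at day 1 (1.46 to 7.51) and 1.57 at day 3 (1.38 to 2.10). The lowest day 1 ratio, 1.46, overlapped both other groups. No test was run on shares and ratios.

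**Figure D2:**
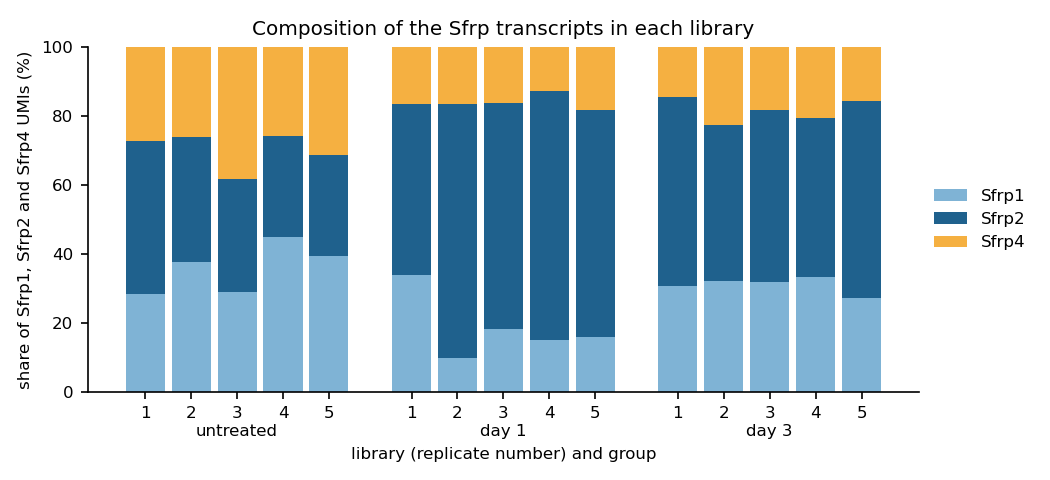
Share of Sfrp1, Sfrp2 and Sfrp4 in their summed UMIs (vertical axis, percent) in each of the 15 libraries (horizontal axis, replicates 1 to 5 of each group). The Sfrp2 segment spans 29.2% to 44.5% in untreated libraries and 49.5% to 73.7% at day 1, and day 1 replicate 1 keeps the largest Sfrp1 segment of its group.

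Rspo1, an R-spondin known for its part in ovary development, lies at chr4:124986430-125009099 on the plus strand. It measured 87.6, 65.9, 47.8, 21.2 and 65.1 CPM in the untreated replicates, 167, 136, 289.8, 71.25 and 55.8 CPM in those of day 1, and 125, 82.6, 51.5, 135 and 113.5 CPM in those of day 3. The groups overlapped in all comparisons, with 3 day 1 libraries and 3 day 3 libraries above every untreated one. Rspo1 had the widest spread between replicates of the 7 genes, with a biological coefficient of variation of 0.477, higher than that of 98.2% of tested genes. Its log2 change was 1.35 ± 0.46 at day 1 (edgeR adjusted p = 0.0255), 0.85 ± 0.45 at day 3 (edgeR adjusted p = 0.219) and -0.50 ± 0.44 from day 1 to day 3 (edgeR adjusted p = 0.413). Without day 1 replicate 3 that last change was -0.042. The day 1 call was lost without day 1 replicate 3, at 0.90 (edgeR adjusted p = 0.0834), without day 1 replicate 1, at 1.32 (edgeR adjusted p = 0.0538), and without untreated replicate 3, at 1.29 (edgeR adjusted p = 0.0564). Scaling by total counts alone also ended it, at 1.10 (edgeR adjusted p = 0.0570). An antisense gene, Gm12930, overlaps exons of Rspo1 on the other strand.

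Markers of mesothelium, the cell sheet that lines body cavities and covers their organs, moved with Rspo1. Of 9 listed markers, 8 were analysed, as Muc16 was absent from the counts. Against untreated, all 8 were called higher at day 1 and 5 at day 3, with none called lower. Of all genes tested, edgeR called 23.1% higher at day 1 and 9.20% higher at day 3. Their summed level ran from 119 to 427 CPM in untreated libraries, from 484 to 3298 CPM at day 1 and from 340 to 1599 CPM at day 3. The means were 276 ± 123, 1832 ± 1030 and 1027 ± 528 CPM (SD, n = 5; two-sided exact permutation adjusted p = 0.0262 at day 1 and 0.0561 at day 3, over 33 tests of marker sums and library measures). At day 1 the 5 libraries had the same order by Rspo1 as by the summed markers, with replicate 3 highest at 289.8 and 3298 CPM and replicate 5 lowest at 55.8 and 484 CPM. In the untreated group and at day 3 the 2 orders differed by a swap of 2 libraries. Per 1000 mesothelial UMIs, Rspo1 had a median of 205 UMIs in untreated libraries, 81.35 at day 1 and 105 at day 3, lower without overlap at both times than in untreated libraries. The part of mesothelial RNA in the rise of Rspo1 was not tested.

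**Figure D3:**
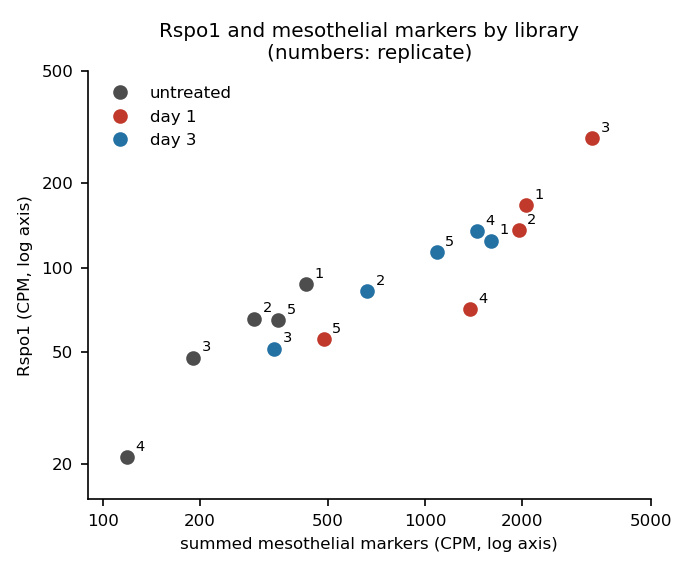
Rspo1 (vertical axis, CPM, log scale) against the summed level of 8 mesothelial markers (horizontal axis, CPM, log scale) in the 15 libraries, with replicate numbers beside the points and the groups in colour. Untreated libraries lie at 119 to 427 CPM of the markers, and day 1 replicate 3 is highest on both axes.

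Rspo3, an R-spondin known for vessel growth and for stromal support of gut stem cells, lies at chr10:29452416-29535867 on the minus strand. Untreated replicates 1 to 5 measured 5.95, 15.35, 14.0, 18.5 and 8.94 CPM, day 1 replicates 6.30, 11.3, 12.9, 10.4 and 26.25 CPM, and day 3 replicates 23.9, 21.3, 23.2, 29.5 and 31.2 CPM. The day 1 libraries lay within the untreated range except for replicate 5, which was above it, and every day 3 library was above every untreated one. The log2 change was 0.07 ± 0.29 at day 1 (edgeR adjusted p = 0.859; -0.51 to 0.66 at ± 2 SE) and 0.97 ± 0.26 at day 3 (edgeR adjusted p = 0.0124), a rise of 1.97-fold. From day 1 to day 3 it rose by 0.90 ± 0.27 (edgeR adjusted p = 0.0136). The counts behind these levels were 7 to 55 UMIs in untreated libraries, 4 to 40 at day 1 and 46 to 106 at day 3. An antisense gene, Gm48159, overlaps exons of Rspo3 on the other strand.

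**Figure D4:**
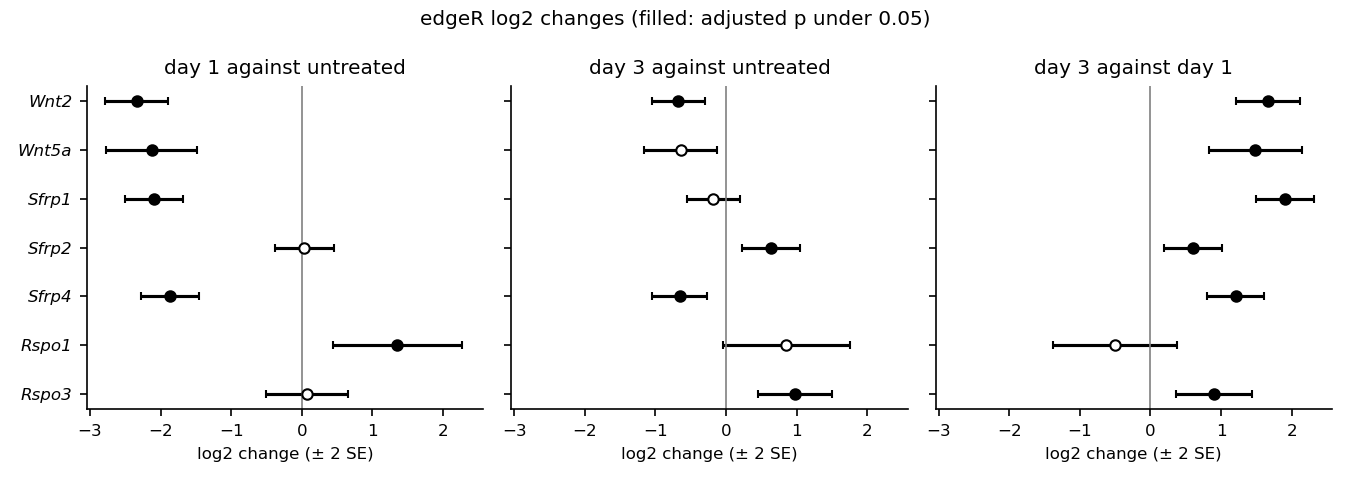
Log2 change of each of the 7 genes with ± 2 SE (horizontal axes) in 3 panels, which compare day 1 with untreated, day 3 with untreated and the later with the earlier time; filled points passed an edgeR adjusted p of 0.05. Wnt2, Wnt5a, Sfrp1 and Sfrp4 lie between -2.34 and -1.87 in the first panel, and in the last panel every filled point is above 0 while Rspo1 is open at -0.50.

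The day 1 libraries also held less fibroblast marker RNA, with 7 of 9 markers called lower and 1 higher. At day 1 edgeR called 23.1% of all genes tested lower and 23.1% higher. The summed fibroblast markers were below those of untreated libraries in every day 1 library (two-sided exact permutation p = 0.00794, the smallest that 5 against 5 libraries allow; adjusted p = 0.0262). Each gene was therefore also set against the summed fibroblast markers, a ratio chosen after the values were seen and given with no test. Per 1000 fibroblast marker UMIs, Wnt2 had 1.13 ± 0.275 UMIs in untreated libraries, 0.493 ± 0.196 at day 1 and 0.8335 ± 0.170 at day 3 (SD, n = 5), still lower at day 1 in every library. Wnt5a, Sfrp1 and Sfrp4 had lower means at day 1 on this scale, but their groups overlapped. The mean log2 difference from untreated was -1.53 for Wnt5a, -0.91 for Sfrp1 and -0.75 for Sfrp4, against fitted changes of -2.13, -2.09 and -1.87 with TMM scaling. For Sfrp1 the overlap came from day 1 replicate 1 at 9.80, above the highest untreated value of 9.24. That library had the lowest fibroblast marker sum of its group, 10445.5 CPM, where the group median was 22112 CPM. It also had the highest Sfrp1 level of its group, 102 CPM. Sfrp2 had 7.13 ± 1.09 UMIs in untreated libraries, 15.02 ± 3.31 at day 1 and 12.9 ± 2.20 at day 3, and Rspo3 had 0.292 ± 0.105, 0.643 ± 0.236 and 0.708 ± 0.131. Rspo1 had 1.38 ± 0.628, 8.18 ± 6.26 and 2.78 ± 1.02, and every day 1 library was above every untreated one, which was not so in CPM. On this scale every day 1 and every day 3 library was above every untreated one for both Sfrp2 and Rspo3, where the CPM scale showed that at day 3 alone. The marker sum was itself lower at day 1, so a gene with an unchanged CPM is higher on this scale by arithmetic. The day 1 separation on this scale therefore does not by itself show a rise of Sfrp2, Rspo3 or Rspo1. Markers of macrophages and dendritic cells moved as well, with 8 of 10 tested higher at day 1 and summed levels of 84.98 to 446 CPM in untreated libraries, 615 to 1326 at day 1 and 61.05 to 131 at day 3. Summed markers of thymic epithelium went from 8.23 ± 4.13 CPM in untreated libraries to 109 ± 82.2 CPM at day 1, with Krt8 shared with the mesothelial list. Of that list 4 genes had values, of which Krt14 went from 22 to 377 UMIs and Krt8 from 45 to 713, while Epcam had 11 and 10 and Aire 19 and 10. Those of pericytes and smooth muscle went from 183 ± 41.03 to 383 ± 115 CPM, and those of adipocytes from 25.2 ± 10.6 to 91.4 ± 51.0 CPM (SD, n = 5; two-sided exact permutation adjusted p = 0.0262 for each of these lists). In the pericyte list 3 of 8 tested genes were called higher and 1 lower, near the 46.2% of all genes called in either direction. Notch3 had 356 and 1149 UMIs, and Abcc9 had 523 and 57. Fabp4, the 1 adipocyte marker tested, had 256 and 676 UMIs, and Plin1 had 12 and 6. Schwann cell markers were lower, at 6.70 ± 1.69 against 2.86 ± 1.99 CPM (exact permutation adjusted p = 0.0476), and thymocyte and endothelial markers did not pass (exact permutation adjusted p = 0.218 and 0.881). At day 3 against untreated, thymocyte markers were lower (3.55 ± 1.47 against 16.6 ± 9.21 CPM) and the thymic epithelial sum was higher (74.35 ± 44.1 against 8.23 ± 4.13 CPM; exact permutation adjusted p = 0.0262 for each). The part of these cell types in the results was not tested.

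The genes whose pattern over the 15 libraries was most like each of the 7 were named by the smallest root mean square difference of centred log2 CPM. For Wnt2 they were Antxr2, Tril and Lama2, at 0.265, 0.268 and 0.281, where the spread of Wnt2 itself on that scale was 1.00. Lama2, which encodes a laminin chain, went from 596 CPM in untreated libraries to 101 CPM at day 1 and 305 CPM at day 3. Wnt5a was most like Vldlr, Slc16a9 and Sema3c (0.347 to 0.425), Sfrp1 most like Galnt17, Atrnl1 and Svep1 (0.271 to 0.329), and Sfrp4 most like Ddr2, a collagen receptor, Ccn3 and Rgmb (0.244 to 0.275). For Sfrp2 the 3 genes were Galk2, Bex3 and Dnase2a (0.234 to 0.248), against a spread of Sfrp2 of 0.472. Rspo1 was most like Trf, which encodes transferrin, Ptprf and Mbp (0.390 to 0.395, own spread 0.861). Rspo3 was most like Rcan2, Ermard and Nop58 (0.368 to 0.387, own spread 0.699). In proportion to the spread, the likeness was less close for Sfrp2, Rspo1 and Rspo3 than for Wnt2.

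Among the other Wnt ligands, 6 were tested, of which 4 fell and 1 rose at day 1, where 23.1% of all genes were called lower and 23.1% higher. Wnt9a fell from 51.8 to 33.4 CPM (log2 -0.66 ± 0.19, edgeR adjusted p = 0.00822). Wnt2b fell from 19.3 to 8.50 CPM, Wnt5b from 14.1 to 7.86 CPM and Wnt10b from 6.02 to 1.26 CPM, with edgeR adjusted p of 0.00232, 0.0230 and 0.000659. Wnt11 did not pass (62.0 ± 13.5 against 44.9 ± 20.5 CPM, edgeR adjusted p = 0.102). Wnt4, a ligand known from kidney and ovary development, was the exception, at 2.41 ± 2.335 CPM in untreated libraries, 19.4 ± 13.1 at day 1 and 6.15 ± 3.31 at day 3 (SD, n = 5; log2 3.10 ± 0.63 at day 1, edgeR adjusted p = 0.000846). Its 2 highest libraries, day 1 replicates 1 and 3 at 34.65 and 32.7 CPM, were also the 2 highest of that group for Rspo1 and the mesothelial markers. Wnt1, Wnt6, Wnt7b, Rspo2 and the antagonist Frzb were below the filter, with group means of at most 2.96 CPM. At day 3 against untreated, 2 of the 6 were lower (Wnt2b, Wnt10b) and none was higher by the test. Of all genes, 9.25% were called lower and 9.20% higher there.

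Of the other secreted antagonists, 3 of 4 tested fell at day 1 and all 4 rose from day 1 to day 3, as Sfrp1 and Sfrp4 did. Over all genes tested, 23.1% were called lower at day 1 and 16.1% higher from day 1 to day 3. Dkk2, which blocks the Lrp co-receptors, went from 271 ± 99.5 CPM in untreated libraries to 42.2 ± 30.6 at day 1 and 127 ± 34.75 at day 3 (log2 -2.75 ± 0.45 at day 1, edgeR adjusted p = 0.000183). Dkk3 went from 99.0 ± 12.3 to 47.0 ± 16.1 and 140.2 ± 26.1 CPM, a rise of 1.54 ± 0.19 on the log2 scale between day 1 and day 3 (edgeR adjusted p = 2.89e-06). Against untreated, Draxin was called higher at day 3 (2.37 ± 1.44 to 5.80 ± 2.44 CPM, edgeR adjusted p = 0.0258), and Dkk2, Dkk3 and Igfbp4 did not pass. The secretion machinery that all Wnts need fell too at day 1, in 2 of 2 genes. Wls, the carrier that brings Wnts to the surface, fell from 42.4 ± 3.29 to 20.03 ± 4.51 CPM (log2 -1.04 ± 0.18, edgeR adjusted p = 7.5e-05) and stood at 34.2 ± 7.49 CPM at day 3. Porcn, the enzyme that attaches their lipid, fell from 18.7 ± 3.90 to 11.3 ± 3.44 CPM (edgeR adjusted p = 0.0174) and reached 24.0 ± 4.203 CPM at day 3.

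On the receiving side, 6 of 12 tested receptors and co-receptors fell at day 1 and 1 rose, and at day 3 against untreated 1 was lower and 1 higher. Of all genes tested, edgeR called 23.1% lower and 23.1% higher at day 1, and 9.25% lower and 9.20% higher at day 3. Fzd2 went from 54.25 CPM in untreated libraries to 12.9 at day 1 and 23.2 at day 3 (log2 -2.08 ± 0.17 at day 1, edgeR adjusted p = 3.15e-09). The gene that rose was Ptk7, a Wnt co-receptor of planar polarity, from 11.9 to 28.7 CPM (log2 1.21 ± 0.31, edgeR adjusted p = 0.00357). Lrp6 fell at day 1 (37.5 to 20.1 CPM, edgeR adjusted p = 0.000408) and Lrp5 did not pass (18.3 and 19.6 CPM, edgeR adjusted p = 0.863). Ror2, a receptor for Wnt5a, changed by -0.52 ± 0.20 at day 1 (edgeR adjusted p = 0.0429) and rose by 0.65 ± 0.20 to day 3 (edgeR adjusted p = 0.0150). Lgr5, a receptor for Rspo1 and Rspo3, fell by 2.01 ± 0.21 on the log2 scale at day 1 (37.6 ± 5.49 to 8.90 ± 3.07 CPM, edgeR adjusted p = 1.61e-07) and was still at 14.2 ± 2.16 CPM at day 3 (edgeR adjusted p = 3.05e-05 against untreated). Lgr4 was below the filter, with group means of 1.79 to 3.31 CPM.

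Heparan sulfate proteoglycans hold Wnts and Sfrps near cells, and the sulfatases Sulf1 and Sulf2 trim their sulfate groups. These genes moved in both directions at day 1, with 3 of 10 higher and 4 lower, Sulf1 among the latter. Of all genes tested, 23.1% were called higher and 23.1% lower. Sdc3 rose from 35.2 to 271 CPM (log2 2.95 ± 0.20, edgeR adjusted p = 2.59e-10) and Gpc6 fell from 46.9 to 3.84 CPM (log2 -3.56 ± 0.27, edgeR adjusted p = 1.23e-09). Of 23 tested cytoplasmic and nuclear transducers, 2 rose and 9 fell at day 1, where 23.1% of all genes were called higher and 23.1% lower. Only both directions together were near the 46.2% of all genes called. Ctnnb1, which encodes beta-catenin, did not pass (234 ± 19.4 and 170.0 ± 57.0 CPM, edgeR adjusted p = 0.0619). Genes that beta-catenin is known to switch on in other tissues were lower in 8 of 13 and higher in 3 at day 1, with a median log2 change of -1.35. Over all genes tested the median was -0.02, with 23.1% called lower and 23.1% higher. Among the 8 lower target genes, Lgr5 and Fzd7 were also counted in the receptor lists above. Tnfrsf19 fell from 80.1 to 9.28 CPM (log2 -3.26 ± 0.35, edgeR adjusted p = 7.69e-07) and Apcdd1 from 87.1 to 26.5 CPM (log2 -1.72 ± 0.20, edgeR adjusted p = 6.42e-07). Those that rose were Myc, Ccn4 and Jun. Axin2, the most general of these targets, did not pass at day 1 (23.6 ± 9.19 and 21.4 ± 22.5 CPM, edgeR adjusted p = 0.439) or at day 3 (edgeR adjusted p = 0.620). Its libraries ran from 15.3 to 34.9 CPM in the untreated group and from 8.29 to 61.4 CPM at day 1. With that spread, the close means do not show that Axin2 was unchanged. At day 3 against untreated 6 of the 13 were lower, among them Ccnd1 (170.1 to 35.7 CPM, log2 -2.25 ± 0.23, edgeR adjusted p = 1.42e-06), and 1, Myc, was higher. In that comparison edgeR called 9.25% of all genes lower and 9.20% higher.

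**Figure D5:**
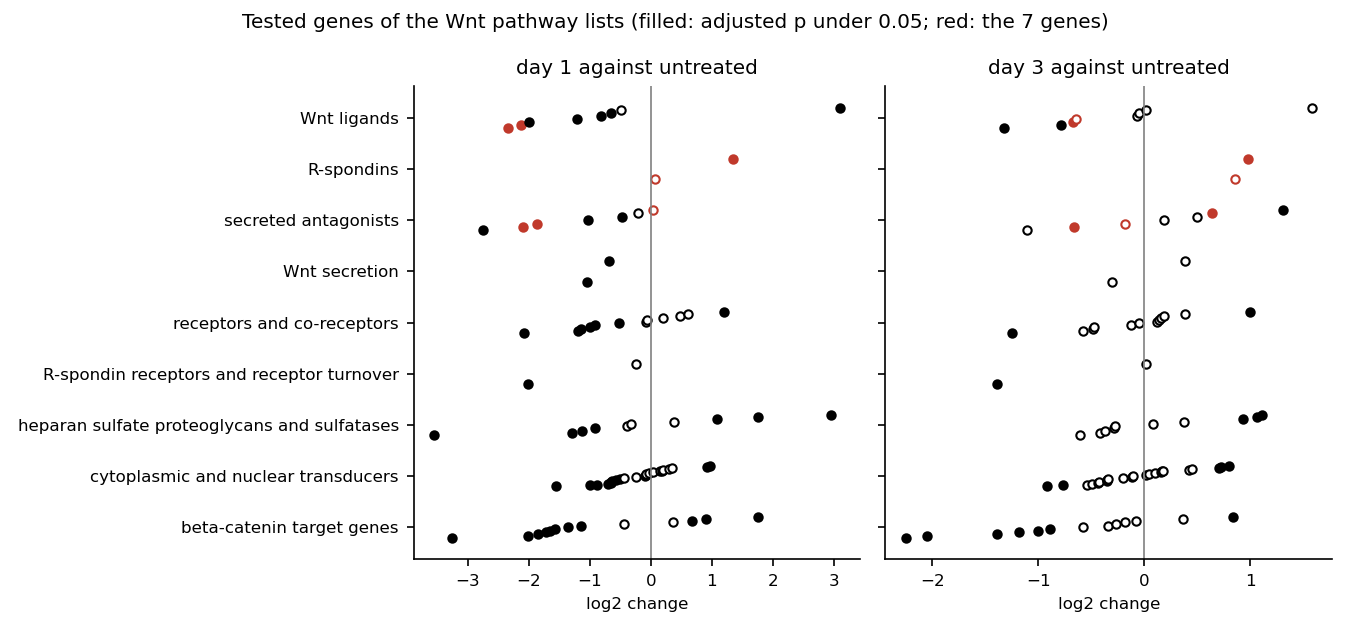
Log2 change against untreated (horizontal axes) of every tested gene of 9 Wnt pathway lists (vertical axis, 1 list a line, genes spread in height by rank) at day 1 and at day 3; filled points passed an edgeR adjusted p of 0.05, and red marks the 7 genes. Of the beta-catenin target genes, 8 of 13 are filled to the left of 0 at day 1 and 6 of 13 at day 3, and the lone filled Wnt ligand to the right at day 1 is Wnt4. Of all genes tested, 23.1% were called lower at day 1 and 9.25% at day 3.

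The authors' deposited table of comparisons marks a gene as passing from an absolute log2 change of 1 and an adjusted p of 0.05. At day 1 the authors' deposited table marks Wnt2, Wnt5a, Sfrp1, Sfrp4 and Rspo1. For day 3 against untreated the authors' deposited table marks none of the 7, with Rspo3 just under the fold limit at a log2 change of 0.9971. For day 3 against day 1 the authors' deposited table marks Wnt2, Wnt5a, Sfrp1 and Sfrp4, and leaves out Sfrp2 and Rspo3 at 0.60 and 0.90.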

How the data were processed

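The deposited raw columns hold UMI counts per gene, unscaled. Build mm10 and the tools STAR 2.5.2b, HTSeq, DESeq2, bcl2fastq and cutadapt are named in the submitters' processing notes. A deposited signal (each count over its library's size factor) was not tested here. Regularized values and fold changes were deposited as log2 values by the authors, with a p-value for each comparison, per the file headers.

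Members and lists were chosen with earlier results of these data known. The counts were filtered with filterByExpr, scaled with TMM and fitted in 1 quasi-likelihood model over 15 libraries with edgeR 4.0.16 (R 4.3.3), with Benjamini-Hochberg adjustment over 10207 genes and a threshold of 0.05. An SE is the log2 change divided by the square root of its F statistic. The code was tested on simulated data. For marker sums, exact permutation tests ran over all 252 ways to split 10 libraries into 5 and 5.

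Members were named in every comparison. Up to 3 called genes of largest change per pathway list were named if a compared group averaged at least 20 CPM, besides the other Wnt, R-spondin, Sfrp and Dkk genes, fixed receptors, transducers and targets, and 3 genes of most similar pattern per member (log2 CPM, prior count 2). Wnt10b, Draxin, Lama2's levels, Myc, Ccn4 and Jun, and the antisense genes, were added after their values were seen.

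Alternatives were DESeq2 1.42.0, limma 3.58.1 voom, RLE or total-count scaling, other filters, a fit of just the groups compared, a replicate block, thinned counts and leaving out each library. Coordinates are from GENCODE vM21. Python 3.11.15 was used for tables and figures. Intervals of ± 2 SE give the uncertainty of a log2 change between groups, estimated from the spread between libraries, and not the range of single libraries.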

Additional observations from a re-analysis of the deposited data

Results flagged for a closer look

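For 6 of the 7 genes the effect of irradiation at day 3 differed from that at day 1 by the test of day 3 against day 1, in which the shared untreated libraries cancel. The differences were 1.66 for Wnt2, 1.48 for Wnt5a, 1.91 for Sfrp1, 0.60 for Sfrp2, 1.21 for Sfrp4 and 0.90 for Rspo3 on the log2 scale. Of all genes tested, edgeR called 16.1% higher and 16.6% lower at day 3 than at day 1. In Wnt2, Wnt5a, Sfrp1 and Sfrp4, all 5 day 3 libraries were above all 5 day 1 libraries. In Sfrp2 and Rspo3 the groups overlapped. How many of all genes had groups without overlap was not counted. No member had a library far from the other 4 of its group by Dixon's criterion (gap over range above 0.71), over 21 sets of 5 libraries. The nearest to that limit was Rspo3 in day 1 replicate 5, at 0.668 (26.25 CPM).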

How the results depend on the processing

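Of 399 member values under alternatives, 360 kept their direction and their side of the threshold. The day 1 falls of Wnt2, Wnt5a, Sfrp1 and Sfrp4, their rises from day 1 to day 3, and both changes of Rspo3 to day 3 passed in every alternative. The replicate numbers did not pair the libraries: same-numbered libraries deviated together with r of -0.35 to 0.17, 4 of 15 pairs exceeding 0.1. With the replicate block the day 1 rise of Rspo1 was 1.30 (adjusted p = 0.0595), and no other member's call changed. Total-count scaling, under which the median of all genes was -0.29, -0.13 and 0.15 in the 3 comparisons (with TMM -0.023, -0.012 and 0.0083), gave Rspo1 1.10 (adjusted p = 0.0570), Sfrp2 -0.23 and Rspo3 -0.19 at day 1, and Wnt5a -0.76 (now passing) and Sfrp2 0.52 (no longer passing) at day 3 against untreated. Under it the difference from untreated was -7.18 CPM (6.76 with TMM) for the endothelial sum and 149 CPM (200.2 with TMM; exact permutation adjusted p = 0.0604) for the pericyte sum at day 1, and -9418 CPM (-5724 with TMM; exact permutation adjusted p = 0.0291) for the fibroblast sum at day 3. limma voom gave Rspo3 -0.085 at day 1, Wnt5a -0.65 and Rspo1 1.08 at day 3, both now passing, Sfrp2 0.42 (no longer passing) and Rspo1 -0.076 from day 1 to day 3, and 3334 genes called at day 3 against 1883. Fits of only the 2 groups compared gave Wnt5a -0.62 at day 3, now passing, and Sfrp2 0.62 from day 1 to day 3, no longer passing. Counts thinned to the smallest library tested 7313 genes and called 2937, 760 and 2061, with 2 members at day 3 against 4, Sfrp2 -0.061 at day 1, and Wnt2 -0.63 and Sfrp2 0.62 at day 3, no longer passing. Leaving out each library gave ranges at day 1 of -0.25 to 0.25 for Rspo3, -0.11 to 0.22 for Sfrp2 and 0.90 to 1.57 for Rspo1. At day 3 the ranges were -0.80 to -0.53 for Wnt5a, -0.77 to -0.56 for Wnt2, 0.57 to 0.72 for Sfrp2 (not passing without untreated replicates 1, 3, 4 or 5 or day 3 replicates 1, 3 or 5) and -0.78 to -0.50 for Sfrp4, and 0.43 to 0.75 for Sfrp2 from day 1 to day 3 (not passing without day 1 replicates 3 or 5 or day 3 replicates 1 or 5). Members called at day 3 ranged from 2 to 4, being 2 without untreated replicate 3, untreated replicate 5 or day 3 replicate 1. At day 1 they ranged from 4 to 5, being 4 without untreated replicate 3, day 1 replicate 1 or day 1 replicate 3. The cause of these changes was not tested. Counts of 1 to 19 UMIs limit Wnt5a at day 1.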
